A study of Mus musculus with 3 samples.

Results

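Intermediate filament genes of neurons and glia were followed in the cerebellum of Smarca5 conditional knockout (cKO) mice and of wild-type mice. The 8 genes were chosen by name: Nefh, Nefm, Nefl, Ina and Prph of neurons, and Gfap, Vim and Nes of glia and neural progenitors. They were found on the array through 25 probes, and all 8 had a value on all 3 arrays, among 19848 named genes. Nefm and Prph were listed under their older symbols, Nef3 and Prph1. Both groups were of the C57Bl/6 strain and were dissected at postnatal day 10. The cKO carried the Smarca5 deletion and its control was wild type, and the Cre driver and the deleted part of the gene are not given in the labels. Each of 3 arrays with 2 colours held cKO RNA against wild-type RNA, with the cKO in Cy5 on replicates 1 and 2 and in Cy3 on replicate 3. Every value below is therefore a log ratio of cKO over wild type, positive where the cKO was higher, and no level of either group on its own was analysed here. The base of the logarithm is not stated and was read as 2, so each fold below holds only for that base. Whether the samples came from separate animals or pools is not stated, so p-values measure the spread between arrays, which may be technical. In whole tissue, fewer cells of a type and less RNA per cell cannot be told apart.

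Intermediate filaments are rope-like polymers of the cytoskeleton whose subunits differ between cell types. In neurons of the brain, the light, medium and heavy neurofilament subunits (Nefl, Nefm and Nefh) assemble together with alpha-internexin (Ina) and fill large axons, and the heavy subunit accumulates late, as axons mature. Peripherin (Prph) is best known from peripheral neurons and from brain neurons that send axons into nerves or long tracts. Progenitors and radial glia carry nestin (Nes) and vimentin (Vim), and vimentin is also made by endothelial cells, fibroblasts and microglia. Mature astrocytes carry glial fibrillary acidic protein (Gfap). In the cerebellum, Purkinje cells, neurons of the deep nuclei and incoming axons are rich in neurofilaments, granule neurons hold little, and Bergmann glia hold Gfap and Vim. This describes protein, whereas the arrays measured RNA.

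Smarca5, the targeted gene, which encodes a nucleosome-sliding ATPase of the ISWI family, had -0.75, -0.96 and -0.88 on replicates 1, 2 and 3. All 3 values lay below 0 and the mean was -0.86 ± 0.11 (SD, n = 3; adjusted p = 0.0886 in limma). It averages 2 unlike probes, one listed as Smarca5 at -1.28 ± 0.15 and one listed under a clone name at -0.44 ± 0.26. Over the whole table, 0 of 28189 features (0%) passed an adjusted p of 0.05, 20.9% had an unadjusted p under 0.05, and 43.6% kept 1 sign on all 3 arrays. The median SD of a feature over the arrays was 0.29.

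Most of the filament genes had higher values in the cKO, highest for Prph and Nefh, but none passed the test over all features. Of the 8 genes, 7 had a mean above 0, where 14172 of 28189 features did. On all 3 arrays, 6 of the 8 were above 0, against 22.1% of all features, while 0 were below 0, against 21.4%. Prph, Nefh and Gfap, 3 of the 8, had an unadjusted p under 0.05 with a higher value in the cKO, where 10.9% of all features did, and 0 did so with a lower value, where 9.98% of all features did. The median of the 8 means was 0.21, and that of all features was 0. The plot of each gene by array shows these values.

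**Figure D1:**
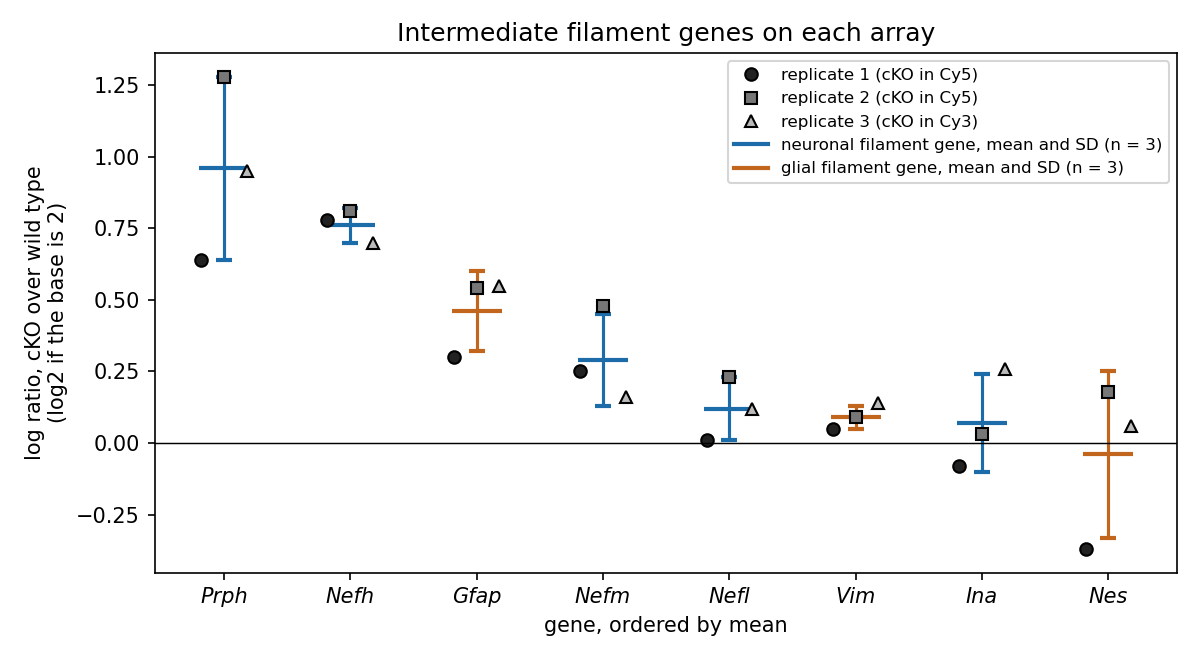
Log ratio of cKO over wild type (vertical axis, log2 if the base is 2) for the 8 intermediate filament genes, ordered by mean. Points are the 3 arrays, and bars are the mean and SD (n = 3). Prph and Nefh lie at 0.64 or above on every array, while Nefl, Vim, Ina and Nes have means between -0.04 and 0.12.

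The neurofilament subunits differed in their ratios. Nefh, the heavy subunit, had 0.78, 0.81 and 0.70 on replicates 1, 2 and 3. The arrays lay close together, on the dye-flipped array too, at a mean of 0.76 ± 0.06 (SD, n = 3), or 1.7-fold higher in the cKO (95% interval 0.44 to 1.08; adjusted p = 0.0932 in limma). Its mean exceeded that of 95.1% of features. Nefh was read by 1 probe, as were Nefl and Ina, so agreement between probes could not be checked for these genes. Nefm, the medium subunit, had 0.25, 0.48 and 0.16. All 3 arrays were above 0, with a mean of 0.29 ± 0.16 (SD, n = 3) and an interval of -0.07 to 0.66 that includes 0 (adjusted p = 0.316 in limma). Nefl, the light subunit on which the others assemble, had 0.01, 0.23 and 0.12. Its mean was 0.12 ± 0.11 (SD, n = 3), with an interval of -0.22 to 0.46, and replicate 1 was at the average of the array (adjusted p = 0.642 in limma). By the gene averages, Nefh stood above Nefm and Nefm above Nefl on each of the 3 arrays. The 2 probes of Nefm were not alike. Probe UT19995 had 0.18, 0.44 and 0.37, all above 0. Probe UT23684 had 0.32, 0.51 and -0.06, so by this probe Nefm lay below Nefl on replicate 3. The difference between Nefh and Nefl was 0.77, 0.58 and 0.58 on replicates 1, 2 and 3, a mean of 0.64 ± 0.11 (SD, n = 3), and that between Nefh and Nefm was 0.47 ± 0.12. Nefm exceeded Nefl by 0.17 ± 0.12, with only 0.04 on replicate 3. Nefl and Nefm are neighbours on their chromosome with 1 pseudogene between them in the RefSeq gene table, whereas Nefh lies on another.

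Alpha-internexin, the partner of the neurofilament subunits in the brain, sat near the array average. Ina had -0.08, 0.03 and 0.26 on replicates 1, 2 and 3. The sign was mixed, and the mean of 0.07 ± 0.17 (SD, n = 3) was within the spread of the arrays (95% interval -0.30 to 0.44; adjusted p = 0.822 in limma). Peripherin was at the opposite end of the 8 genes. Prph had 0.64, 1.28 and 0.95, all above 0, and its mean of 0.96 ± 0.32 (SD, n = 3), 1.94-fold higher in the cKO, exceeded that of 97.5% of features. The 95% interval was 0.48 to 1.43, and the adjusted p in limma was 0.106. Both of its probes were above 0 on all 3 arrays, which 21.9% of all probes were. Probe UT05729 had 0.72, 1.18 and 1.38, and probe UT28932 had 0.56, 1.37 and 0.52, so replicate 2 was the highest by the second probe and replicate 3 by the first. Nefl, Nefm, Nefh and Prph each had their highest value on replicate 2.

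Gfap was the glial member with the highest ratio. It had 0.30, 0.54 and 0.55 on replicates 1, 2 and 3. All arrays were above 0, with a mean of 0.46 ± 0.14 (SD, n = 3), 1.38-fold higher in the cKO (95% interval 0.11 to 0.81; adjusted p = 0.168 in limma). Its 2 probes had means of 0.32 ± 0.14 and 0.60 ± 0.19, each above 0 on all 3 arrays. Vim had 0.05, 0.09 and 0.14, a narrow range just above the array average, with a mean of 0.09 ± 0.04 (SD, n = 3; 95% interval -0.22 to 0.41; adjusted p = 0.708 in limma). This value averages 14 probes, and averaging narrows the spread. Single Vim probes had means from -0.16 to 0.40 with SDs from 0.03 to 0.63. Of these probes, 4 were above 0 on all 3 arrays, 0 were below and 10 had mixed signs. The 4 probes above 0 on all arrays had means from 0.08 to 0.20. Nes had -0.37, 0.18 and 0.06, with replicate 1 apart on the low side. Its mean of -0.04 ± 0.29 (SD, n = 3; 95% interval -0.49 to 0.41; adjusted p = 0.918 in limma) turned to 0.12 without replicate 1, and its 2 probes differed in sign, at 0.09 ± 0.31 and -0.18 ± 0.32.

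**Figure D2:**
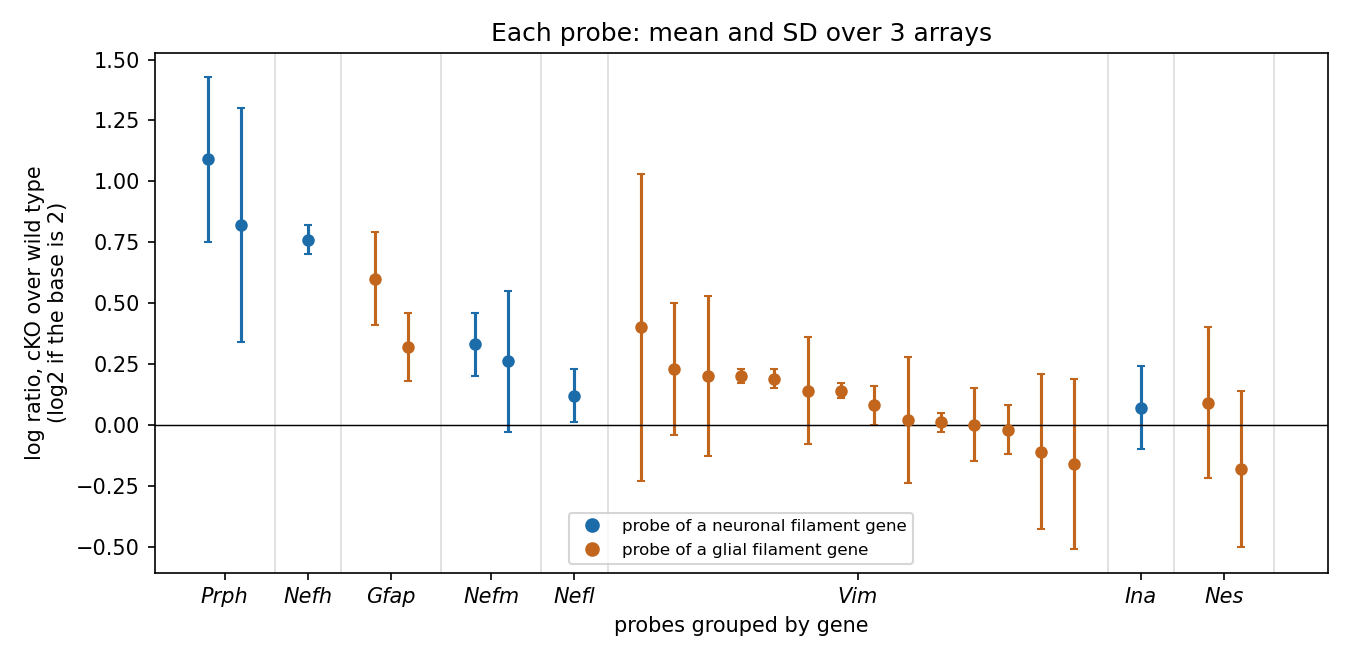
Mean log ratio of cKO over wild type (vertical axis, log2 if the base is 2) with the SD over 3 arrays for each of the 25 probes, grouped by gene. The 1 probe of Nefh and the 2 probes each of Prph and Gfap lie above 0, from 0.32 to 1.09. The 14 probes of Vim scatter from -0.16 to 0.40 around 0.

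To set the values beside sequence, the 100 bases upstream of the RefSeq start are shown for the members with the highest and the lowest mean among the neuronal genes (Prph and Ina), and for the highest glial member with Vim, which has 14 probes. RefSeq sequences of GRCm38.p6 were matched by symbol for 5 of the 8 genes, and Nefh, Nefm and Nefl are named only. Bases are 5′ to 3′ on the gene's strand, and capitals mark the letters TATAAA for the TATA box, the letters CCAAT for the CCAAT box, the letters GGGCGG for the GC box or the letters CAGCTG for the E-box, on either strand. In Prph the TATA box and the GC box lie side by side with 1 base between them.
Prph (chr15:99055074-99055173, plus strand): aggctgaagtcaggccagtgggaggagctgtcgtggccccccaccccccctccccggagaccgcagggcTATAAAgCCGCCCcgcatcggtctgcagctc
Ina (chr19:47014581-47014680, plus strand): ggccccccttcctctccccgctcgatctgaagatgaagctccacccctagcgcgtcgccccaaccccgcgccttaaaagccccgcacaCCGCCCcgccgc
Gfap (chr11:102897201-102897300, minus strand): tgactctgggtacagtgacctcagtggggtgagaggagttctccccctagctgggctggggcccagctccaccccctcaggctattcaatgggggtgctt
Vim (chr2:13574211-13574310, plus strand): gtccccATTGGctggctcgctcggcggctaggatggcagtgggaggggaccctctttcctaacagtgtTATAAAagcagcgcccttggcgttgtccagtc
A TATA box began at position -31 in Prph and at -32 in Vim, counted from -1 at the base before the start, and it stood in 5.56% of the 32851 windows of this length in the table. GC boxes stood in Prph, Ina and Nes and in 24.7% of all windows. The inverted CCAAT box of Vim was a motif of 18.9% of windows, and the E-box, in 5.81% of windows, was in none of the 5 genes. The window of Gfap held none of these letters. Prph and Vim, both with a TATA box, had mean log ratios of 0.96 and 0.09.

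Neurofilament and glial filament genes were then set against each other. The mean over the 5 neuronal genes was 0.32, 0.56 and 0.44 on replicates 1, 2 and 3, which gives 0.44 ± 0.12 (SD, n = 3). The mean over the 3 glial genes was -0.01, 0.27 and 0.25, which gives 0.17 ± 0.15. The neuronal genes exceeded the glial genes by 0.33, 0.30 and 0.19, a difference of 0.27 ± 0.07 with the same sign on all 3 arrays. No p-value is given, because the genes were chosen by name with earlier results of these data known. The difference rested on Prph and Nefh. It was 0.14 without Prph and -0.01 without both. The glial mean in turn rested on Gfap, as Vim and Nes alone had a mean of 0.03 ± 0.16. These trims of either class were chosen after their values were seen. Nefl, Nefm and Nefh against Gfap and Vim differed by 0.17, 0.19 and -0.02, a mean of 0.11 ± 0.12 that is within its spread. Gfap itself stood above Nefl on every array, with Nefl minus Gfap at -0.29, -0.31 and -0.43. The values therefore overlapped between the classes, with Gfap among the higher neuronal genes and Nefl and Ina beside Vim and Nes.

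**Figure D3:**
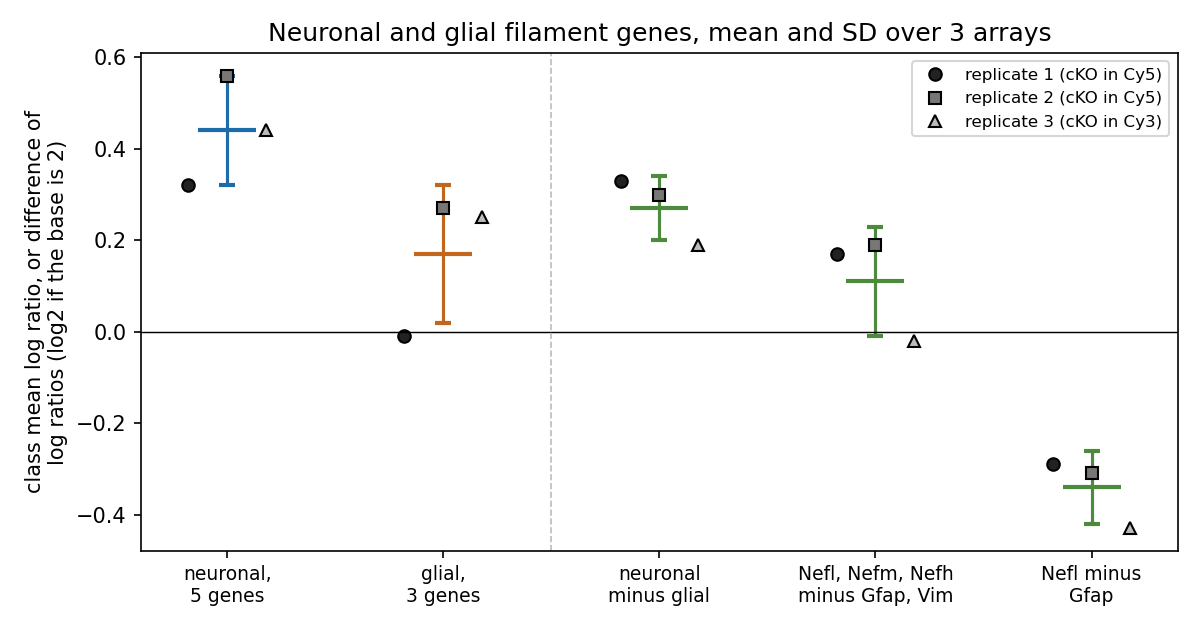
Left, mean log ratio of cKO over wild type over the 5 neuronal and the 3 glial filament genes. Right, differences between log ratios for the classes named below each column. Points are the 3 arrays, bars the mean and SD (n = 3), and values are log2 if the base is 2. The difference of all neuronal from all glial genes is 0.19 to 0.33, while Nefl lies below Gfap on every array, by -0.29 to -0.43.

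In order of the mean, the genes ran Prph, Nefh, Gfap, Nefm, Nefl, Vim, Ina and Nes. Neighbours in this order differed by more than the SD of their difference in 2 places. Nefh exceeded Gfap by 0.30 ± 0.17 and, by the average of its 2 probes, Nefm exceeded Nefl by 0.17 ± 0.12, both on 3 of 3 arrays. Prph and Nefh (0.19 ± 0.31), Gfap and Nefm (0.17 ± 0.20), and the neighbours among Nefl, Vim, Ina and Nes did not differ beyond their spread. Gfap still stood above Nefm on 3 of 3 arrays. Prph and Nefh took ranks 1 and 2 among the 8 genes on all 3 arrays, in either order, and Gfap took rank 3 on each. Within single arrays, Nefh exceeded between 89.9% and 92.0% of features, Prph between 88.4% and 96.6%, and Gfap between 73.8% and 85.6%.

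Other intermediate filament proteins showed no common direction. Of 19 genes, which include lamins, keratins and filaments of muscle and lens, 0 passed the adjusted test. At an unadjusted p under 0.05, 3 were higher and 3 lower, where 10.9% and 9.98% of all features were. On all arrays 7 were above and 3 below 0, against 22.1% and 21.4% of all features, and the median was 0.04. The smallest p values belonged to Bfsp2, a filament protein of the eye lens, at 1.30 ± 0.19, and to Lmnb2, a nuclear lamin, at -0.85 ± 0.05 (SD, n = 3 each). Lmnb1, the other B-type lamin, had -0.59, -0.95 and -0.57 on replicates 1, 2 and 3, whereas Lmna had 0.26 ± 0.13. Lmnb1 and Lmna were picked after their values were seen.

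Genes that link, carry or modify intermediate filaments also lay around 0. Of 22 such genes, 18 were measured, with a median of -0.01 and 0 adjusted calls. At an unadjusted p under 0.05, 2 were higher and 1 was lower, where 10.9% and 9.98% of all features were. The smallest p values belonged to the linkers Ppl (periplakin), at -0.66 ± 0.14, and Evpl (envoplakin), at 0.73 ± 0.38. Kif5a, a kinesin motor that carries neurofilaments along axons, had 0.28, 0.34 and 0.41, while its paralogues Kif5c and Kif5b had -0.12 ± 0.16 and -0.01 ± 0.41. Plec, the linker plectin, had 0.01 ± 0.10. Cdk5, a kinase that phosphorylates the tails of the medium and heavy subunits, had 0.18, 0.28 and 0.20, a mean of 0.22 ± 0.05. Its activators Cdk5r1 and Cdk5r2 had -0.18 ± 0.17, below 0 on all 3 arrays, and -0.26 ± 0.37. These kinesin, plectin and kinase genes were picked after their values were seen.

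Among other cytoskeletal genes of axons and neurites, more had values below 0 than above it. Of 20 measured genes, 0 passed the adjusted test, 5 were lower and 0 higher at an unadjusted p under 0.05, 6 had a mean above 0, and the median was -0.05. Over all features, 9.98% were lower and 10.9% higher at that p, and 14172 of 28189 had a mean above 0. The smallest p values were those of Dcx (doublecortin), a microtubule protein of young migrating neurons, at -0.94 ± 0.22, and of Actl6b, listed with this group and known as a neuronal subunit of a chromatin remodeling complex, at -0.80 ± 0.27. Genes of microtubules and the proteins bound to them lay on both sides of 0. Map1b had 0.33 ± 0.25, Map1a 0.28 ± 0.18, Tubb3 0.13 ± 0.08 and Mapt 0.03 ± 0.23, whereas Dclk1 had -0.56 ± 0.11, Crmp1 -0.37 ± 0.13, Stmn3 -0.22 ± 0.29 and Map2 -0.08 ± 0.21. These 8 genes were picked after their values were seen.

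Marker genes of cell types, some of which hold these filaments, were read from the same arrays, and 0 of them passed the adjusted test. No list was made for neurons of the deep nuclei. All 9 measured genes of brainstem and midbrain neurons were above 0 on all 3 arrays, with list means of 2.27, 2.20 and 1.93 on replicates 1, 2 and 3 and gene means from 0.23 to 3.39. Their smallest p values were those of Ddc (1.83 ± 0.13) and Slc18a2 (3.24 ± 0.72), genes of monoamine neurons. The similar list means hide single genes that differed between arrays. Slc6a3 had 4.55, 1.43 and 4.18, lowest on replicate 2, whereas Slc6a4 had 2.9, 4.32 and 1.97, highest on replicate 2. Slc6a3 and Slc6a4 were picked after their values were seen. Granule neuron genes were below 0 on all 3 arrays for 9 of 10 genes, with list means of -1.58, -1.46 and -1.0, and their smallest p values were those of Etv1 (-1.96 ± 0.18) and Gabrd (-2.50 ± 0.36). Purkinje cell genes had a median of 0 over 9 measured genes, with 1 above and 1 below 0 on all arrays, Foxp2 at 0.57 ± 0.20 and Rora at -0.30 ± 0.12. For the glial filaments, the 14 genes of astrocytes and Bergmann glia had a median of 0.11 and list means of 0.13, 0.13 and 0.07. Of these, 8 were above and 2 below 0 on all arrays, with Aldoc, which Purkinje cells also express, at 0.90 ± 0.16 and Gdf10 at -0.69 ± 0.17. For Vim, microglial genes were above 0 on all arrays for 9 of 9 genes (median 0.93), genes of meninges and fibroblasts for 6 of 8 (median 0.46) and of endothelium and pericytes for 3 of 9 (median 0.06). Below 0 on all arrays were 1 gene of meninges and fibroblasts and 3 of endothelium and pericytes. Lists of ependyma and choroid plexus (6 genes, median 0.55) and of the oligodendrocyte lineage (8 genes, median 0.66) were above 0 on all arrays for 4 and 5 genes. Each of these 2 lists had 1 gene below 0 on all arrays. Over all features, 22.1% were above and 21.4% below 0 on all 3 arrays. The part of these cell types in the filament values was not tested.

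**Figure D4:**
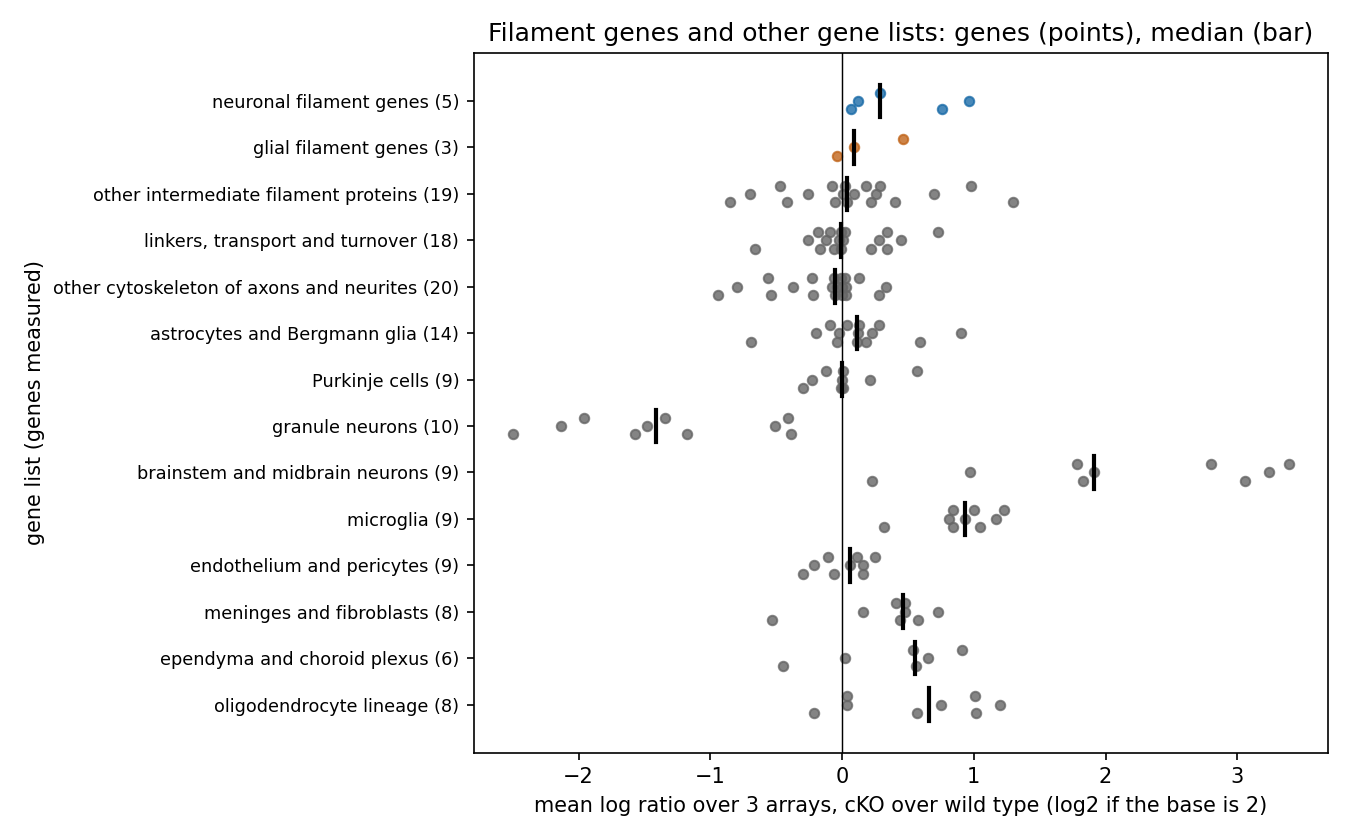
Mean log ratio of cKO over wild type over 3 arrays (horizontal axis, log2 if the base is 2) for each gene of the filament classes and of the other lists, with the number of genes measured in brackets. Points are genes and black bars are medians. The neuronal filament genes reach 0.96 around a median of 0.29, against medians of 1.91 for brainstem and midbrain neurons and -1.41 for granule neurons.

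The genes closest in pattern to the classes were found by the Euclidean distance of log ratios over the 3 arrays, among 17845 named genes. Closest to the neuronal mean were Spred3 (0.31, 0.54 and 0.46 on replicates 1, 2 and 3), Ebf2 (0.31, 0.55 and 0.48), a transcription factor of Purkinje cells and other neurons, and Lrrcc1 (0.37, 0.58 and 0.47). Closest to the glial mean were Scaf1 (-0.01, 0.28 and 0.25), Asb5 (-0.02, 0.27 and 0.24) and Il27 (0.02, 0.27 and 0.26). Of the 17845 genes, 21 lay within a distance of 0.1 of the neuronal mean and 59 of the glial mean. Likeness over 3 arrays is thus not particular to the 3 genes named for each class.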

How the data were processed

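RNA was labelled with a Genisphere dendrimer kit per the labels' protocols. The authors' deposited table lists 38880 probes, of which 38864, 38841 and 38851 have a centred value on replicates 1, 2 and 3, used here as log2 ratios; scanner, background correction, normalization and log base are not stated in the labels or the file. Without intensities, signal over background is unknown, and the number of arrays limits the precision. Ratios were read as channel 2 over channel 1, cKO over wild type per the labels. Turning them all round would make Smarca5 higher in the cKO, so its direction partly set this reading. A set of 47 spots that follow the dye averaged -7.86, -7.93 and 7.71 on replicates 1, 2 and 3, so the arrays run channel against channel, and these spots were left out. Across probes, which are no independent replicates, Pearson's r was 0.443 for replicates 1 and 2, 0.266 for 1 and 3, and 0.223 for 2 and 3.

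The old platform annotation gave 30457 probes 1 symbol, 0 several and 8423 none. A RefSeq table updated the symbols, where 19043 matched a current symbol, 11249 a synonym of 1 gene and 165 were kept. The mean over a gene's probes was taken per array. The 28189 features with 3 values (19848 named genes, 8341 unnamed probes) were fitted with limma 3.58.1 in R 4.3.3, with an intercept, eBayes (residual degrees of freedom 2, prior 2.08) and Benjamini-Hochberg adjustment over all features at 0.05. The fit was also run on simulated data, with set effects larger than the mean of any member. There only the closeness of the mean estimates to the set values was required. It is therefore no check of the p-values or intervals of the members. Intervals are limma's moderated 95% intervals.

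The members and lists were chosen with earlier results of these data known. Named were all members, Smarca5, the 2 genes of smallest p in lists of the cytoskeleton and of cell types, and the 3 genes nearest each class mean, without predicted genes and clone names. Alternatives were a dye term, scaled or quantile-normalized arrays, the median over probes, symbols as on the array, single probes, replicate 3 turned, no moderation, named features only, other members per class, and leaving out each replicate.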

Additional observations from a re-analysis of the deposited data

How the results depend on the processing

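No filament gene passed the adjusted threshold of 0.05 in limma under any of the 12 alternatives tried for the count of called genes, single probes included. With an unadjusted p under 0.05 stood 3 of 8 genes in the fit reported, and 2 without each of replicates 1, 2 and 3 in turn. There were 2 of 6 with symbols as on the array and 0 with the sign of replicate 3 turned. Taken singly, 4 of the 25 probes had an unadjusted p under 0.05 in limma, against 8219 of 38755 over all probes. Vim holds 14 of the 25. The count over all features changed too. It was 5891 of 28189 in the fit reported, and 3568, 4064 and 5051 without replicates 1, 2 and 3. With symbols as on the array it was 6236 of 29790, and with the sign of replicate 3 turned 1115 of 28189. The smallest adjusted p was 0.0539 for Nefh and 0.0665 for Prph, and 0.0512 for Smarca5 where named features alone were tested, a setting in which 457 of 19848 features passed, against 0 of 28189 in the fit reported, 2 without moderation and 4 with the sign of replicate 3 turned. In limma with a dye term the adjusted p was 0.204 for Nefh and 0.212 for Prph. Without replicates 1, 2 and 3 in turn it was 0.378, 0.318 and 0.24 for Nefh, and 0.378, 0.318 and 0.252 for Prph. The mean log ratio of Nefh ranged from 0.74 to 0.80, of Prph from 0.80 to 1.11 and of Gfap from 0.42 to 0.54 over the alternatives that kept the sign of replicate 3. Leaving out each replicate gave Ina from -0.03 to 0.15 and Nes from -0.16 to 0.12, so neither has a settled direction. With symbols as on the array, which drop Nefm and Prph, Smarca5 had -1.28, the neuronal mean was 0.32 and its difference from the glial mean 0.15. With the sign of replicate 3 turned, the neuronal mean was 0.15, the glial mean 0, the difference 0.14 and Ina -0.10. Nefl, Nefm and Nefh against Gfap and Vim differed by 0.11. Chosen after seeing the data, leaving out Prph gave a neuronal mean of 0.31 and a difference of 0.14, leaving out Nefh and Prph gave 0.16 and -0.01, and Nefl, Nefm and Ina against Gfap gave -0.30. Vim and Nes alone, also chosen after seeing the data, gave a glial mean of 0.03. Leaving out each replicate moved the neuronal mean from 0.38 to 0.50, the glial mean from 0.12 to 0.26 and the difference from 0.24 to 0.31. The dye term, scaling, quantile normalization and the median over probes moved the 3 class values by less than 1 SD. Each array already sets cKO against wild type, so the test of log ratios against 0 compares them within arrays. No further pairing was possible, because the labels give 1 group of ratios.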
